A study of Mus musculus with 8 samples.

Results

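Fibrillar collagen is made, folded and tied together by a small set of enzymes, and 10 of their genes were followed here in tibialis anterior (TA) muscles of dystrophic and WT mice. With earlier results of these data known, the genes were chosen by name for their role in collagen processing and crosslinking. They are *Lox*, *Loxl1*, *Loxl2*, *Loxl3*, *Plod1*, *Plod2*, *Plod3*, *Serpinh1*, *P4ha1* and *P4ha2*, which made up 10 of the 55401 genes in the expression table, each with 1 row. All 10 passed the filter on low values. RNA was sequenced from whole TA muscles of 4 WT and 4 mdx5cv mice, all of them male, 6 mo old and on the C57/Bl6 strain. The mdx5cv mouse carries a germline mutation of *Dmd*, the dystrophin gene, and is used as a model of Duchenne muscular dystrophy. No treatment and no further allele is given for either group, so genotype is what distinguishes them. The labels do not say whether the muscles of a group came from separate litters, so the p-values measure the spread between these samples.

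Procollagen chains are modified while still in the endoplasmic reticulum (ER). Prolyl 4-hydroxylases make the hydroxyproline that holds the triple helix together at body temperature, lysyl hydroxylases modify lysines that later carry crosslinks, and the chaperone encoded by *Serpinh1* binds the finished helix on its way out. Outside the cell, enzymes of the lysyl oxidase family oxidize lysines and hydroxylysines so that neighbouring collagen or elastin molecules join covalently. In skeletal muscle this matrix surrounds the fibers, and its build-up is a hallmark of dystrophic muscle. Prolyl and lysyl hydroxylases need molecular oxygen, and some of their genes are known targets of hypoxia-inducible factors (HIF), whereas *Serpinh1* belongs to the heat shock genes.

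Promoters are shown because those 2 regulatory inputs leave short sequence cores that can be looked for, and because the genes shown divide into 2 whose transcript was higher in mdx5cv muscle and 2 whose transcript was not called. RefSeq promoter windows (build GRCm38.p6, 250 bases before to 50 bases after the start) were found for 5 of the 10 genes. Capitals mark the hypoxia response cores ACGTG and GCGTG and the heat shock cores GAANNTTC and TTCNNGAA, read on both strands, so that a core on the other strand appears as its reverse complement. The first window is that of *Serpinh1* at chr7:99353190-99353489 on the minus strand, and the second that of *Plod1* at chr4:147936727-147937026 on the minus strand. The others are *P4ha1* at chr10:59323046-59323345 and *P4ha2* at chr11:54100674-54100973, both on the plus strand.
Serpinh1: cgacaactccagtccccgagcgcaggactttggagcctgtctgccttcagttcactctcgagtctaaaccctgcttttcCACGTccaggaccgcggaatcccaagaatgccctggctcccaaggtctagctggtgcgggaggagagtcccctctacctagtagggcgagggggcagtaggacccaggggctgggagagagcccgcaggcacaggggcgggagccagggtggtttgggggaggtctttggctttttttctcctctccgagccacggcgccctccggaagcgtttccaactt
Plod1: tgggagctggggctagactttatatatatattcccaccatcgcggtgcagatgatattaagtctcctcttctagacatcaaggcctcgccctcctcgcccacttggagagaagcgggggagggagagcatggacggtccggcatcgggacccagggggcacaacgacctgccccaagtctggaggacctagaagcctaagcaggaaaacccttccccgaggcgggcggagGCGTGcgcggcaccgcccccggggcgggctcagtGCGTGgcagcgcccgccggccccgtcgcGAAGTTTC
P4ha1: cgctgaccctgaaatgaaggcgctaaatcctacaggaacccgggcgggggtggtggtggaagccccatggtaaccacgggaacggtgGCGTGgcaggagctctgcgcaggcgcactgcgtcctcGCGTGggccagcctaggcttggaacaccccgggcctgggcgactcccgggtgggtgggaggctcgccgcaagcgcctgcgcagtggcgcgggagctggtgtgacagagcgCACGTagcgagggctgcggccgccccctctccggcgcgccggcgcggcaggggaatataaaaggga
P4ha2: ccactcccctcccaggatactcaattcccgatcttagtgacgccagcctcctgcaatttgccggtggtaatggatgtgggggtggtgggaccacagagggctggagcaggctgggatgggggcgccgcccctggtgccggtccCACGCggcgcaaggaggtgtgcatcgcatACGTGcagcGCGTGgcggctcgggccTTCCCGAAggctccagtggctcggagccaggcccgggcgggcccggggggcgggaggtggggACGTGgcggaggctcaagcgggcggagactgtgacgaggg
The *Serpinh1* window held 1 hypoxia core and 0 heat shock cores, and the *Plod1* window held 2 hypoxia cores and 1 heat shock core. There were 3 hypoxia cores in the *P4ha1* window, and 4 together with 1 heat shock core in the *P4ha2* window. These letters are common, since 43.8% of 32851 promoters of the same length held a hypoxia core and 15.1% held a heat shock core. A match is a description of the letters and no evidence of a bound factor. The *Plod3* window, not printed, held 4 hypoxia cores. *Lox*, *Loxl1*, *Loxl2*, *Loxl3* and *Plod2* are named only.

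Between 13175524 and 14921057 reads per muscle were counted, and the expression values are normalized counts, which are reads divided by a size factor for each muscle. The share of normalized counts from mitochondrial genes was 30.03% to 38.7% in WT and 25.3% to 32.1% in mdx5cv muscles, and scaling all muscles to equal totals took the all-gene median of the log2 fold change from 0.0035 to 0.36. Differences below are log2 fold changes of the normalized count plus 1, mdx5cv against WT, with the SE and adjusted p of a limma fit over the 13677 genes whose mean normalized count reached 10. Being past the threshold means an adjusted p under 0.05 together with a log2 fold change of 1 or more in size. *Dmd* itself had normalized counts of 6914, 8155, 6579 and 6169 in the WT muscles and 4399.6, 4056, 3941 and 3461 in the mdx5cv muscles. The groups did not overlap, with *Dmd* lower in mdx5cv (log2 fold change -0.81, SE 0.12, adjusted p = 0.000177).

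Among the 10 genes, the lysyl oxidase transcripts were higher in mdx5cv muscle, and the prolyl 4-hydroxylase transcripts *P4ha1* and *P4ha2* were not called. *Lox*, *Loxl1*, *Loxl2*, *Loxl3* and *Serpinh1* were past the threshold, which is 5 of 10 genes against a background of 10.3% of all genes tested. None of the 10 was past the threshold in the lower direction, where the background was 3.27%. On the adjusted p alone, *Plod1* and *Plod2* joined them, which makes 7 of 10 higher against 20.9% of all genes, and 0 lower against 20.1%. The same 7 had no overlap between the groups, against 20.3% of all genes. *Plod3*, *P4ha1* and *P4ha2* were not called. The median log2 fold change of the 10 was 1.01, against 0.0035 over all genes tested.

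**Figure D1:**
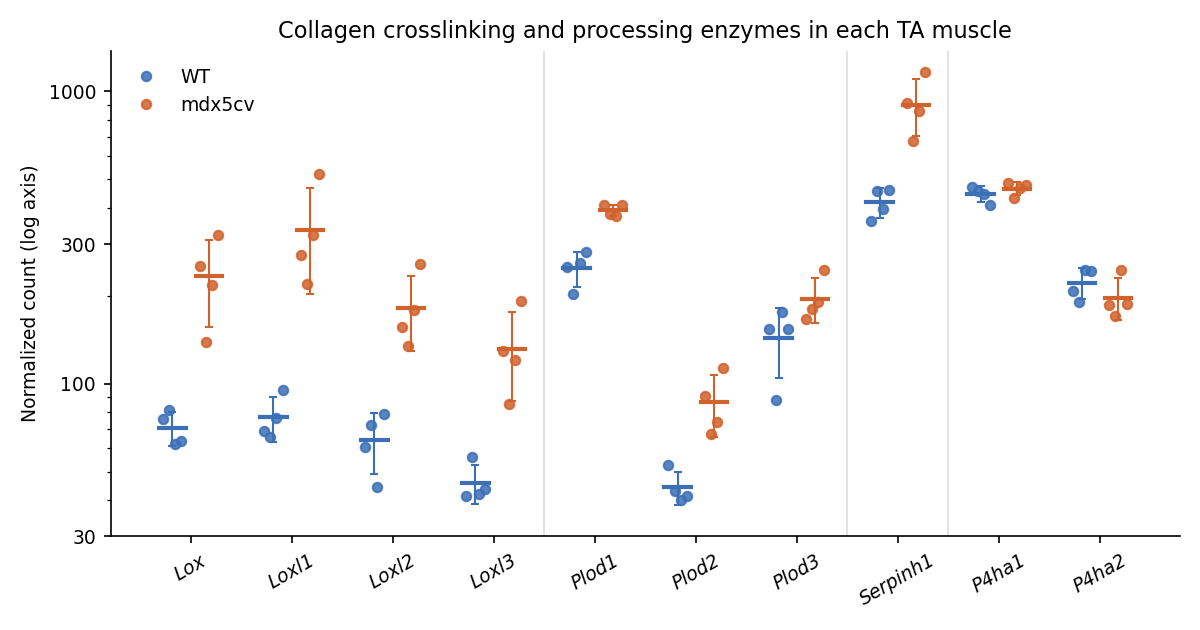
Normalized count (log axis) of each of the 10 genes in each TA muscle, with 4 WT and 4 mdx5cv points per gene, a bar at each group's mean and an error line of 1 SD. The points of the 2 groups are separate for 7 genes and overlap for *Plod3*, *P4ha1* and *P4ha2*.

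*Lox* encodes lysyl oxidase, the founding copper enzyme of the family, which acts on both collagen and elastin. It lies at chr18:52516067-52529867 on the minus strand (GRCm38, GENCODE M21). Its normalized counts were 75.6, 81.2, 61.9 and 63.6 in WT muscles and 253, 139, 217 and 322 in mdx5cv muscles. Every mdx5cv muscle was above every WT muscle, although mdx5cv replicate 2 stood well below the other three. The log2 fold change was 1.65 (SE 0.21, 95% interval 1.19 to 2.12, adjusted p = 7.01e-05).

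*Loxl1*, whose product is known for its part in elastic fiber upkeep, is at chr9:58287738-58313186 on the minus strand. WT muscles had 68.8, 65.8, 76.3 and 95.3 normalized counts, and mdx5cv muscles 274, 219.8, 321 and 522. The lowest mdx5cv muscle was well above the highest WT muscle, and replicate 4 was the highest of both groups. With a log2 fold change of 2.05 (SE 0.22, 95% interval 1.57 to 2.53, adjusted p = 1.69e-05), the fitted difference of *Loxl1* exceeded those of the other 9 genes, and 95.8% of all genes tested had a smaller log2 fold change.

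*Loxl2* and *Loxl3* are among the genes of the family whose products carry scavenger receptor cysteine-rich domains. *Loxl2* is at chr14:69609068-69695834 and *Loxl3* at chr6:83034173-83052562, both on the plus strand. The normalized counts of *Loxl2* were 60.7, 72.4, 44.2 and 78.4 in WT and 157, 135, 179 and 256 in mdx5cv muscles. Those of *Loxl3* were 41.3, 55.9, 42.0 and 43.4 in WT and 129, 84.9, 121 and 191 in mdx5cv muscles. Neither gene had overlapping groups, and in both mdx5cv replicate 2 was the lowest and replicate 4 the highest of its group. *Loxl2* rose by 1.48 on the log2 scale (SE 0.21, 95% interval 1.02 to 1.95, adjusted p = 0.000158). For *Loxl3* the log2 fold change was 1.46 (SE 0.22, 95% interval 0.99 to 1.92, adjusted p = 0.000199). *Loxl3* shares 535 exon bases with *Htra2* on the opposite strand, and *Loxl2* 308 with other gene models, and part of these counts could belong to those genes, because the strand setting of the counting is not given.

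*Serpinh1*, the collagen-specific chaperone of the ER, had the highest level of the 10 per length. It lies at chr7:99345376-99353239 on the minus strand. Its normalized counts were 359.9, 457, 396 and 458 in WT muscles and 911, 677, 853 and 1160.3 in mdx5cv muscles. The groups were apart, with a gap between 458 and 677. Its log2 fold change of 1.09 (SE 0.15, 95% interval 0.76 to 1.41, adjusted p = 0.000105) was near the minimum of 1, and it was 0.99 with each muscle centred on its median and 0.96 without mdx5cv replicate 4, with an adjusted p of 0.000118 and 0.000190.

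No lysyl hydroxylase gene reached the minimum fold change, although *Plod1* and *Plod2* passed the adjusted p. *Plod1*, which modifies lysines in the helical part of collagen, is at chr4:147909753-147936767 on the minus strand. It had 251, 202, 258 and 282 normalized counts in WT and 408, 381, 375 and 407 in mdx5cv muscles. The 4 mdx5cv muscles lay close together and above all WT muscles, giving a log2 fold change of 0.67 (SE 0.12, 95% interval 0.42 to 0.92, adjusted p = 0.000639). *Plod1* also had the smallest relative spread between mdx5cv muscles, with an SD of 17.1 about a mean of 393.

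*Plod2* encodes the lysyl hydroxylase that acts on the collagen telopeptides, where crosslinks form. It is at chr9:92542223-92608428 on the plus strand and shares 346 exon bases with a gene model on the opposite strand. WT muscles had 52.7, 42.8, 39.8 and 41.3 normalized counts, against 90.8, 67.0, 73.8 and 113 in mdx5cv muscles. Each mdx5cv value was above the WT range, with replicate 2 the lowest and replicate 4 the highest. The log2 fold change was 0.93 (SE 0.19, 95% interval 0.52 to 1.34, adjusted p = 0.00175), and it was over 1 with equal totals (1.28), without WT replicate 1 (1.02) and without mdx5cv replicate 2 (1.04).

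*Plod3*, whose product also transfers sugars to hydroxylysine, is at chr5:136987019-136996648 on the plus strand and overlaps *Znhit1* on the opposite strand. Its normalized counts were 154, 87.8, 176 and 154 in WT and 167, 179, 190.0 and 245 in mdx5cv muscles. The groups overlapped, since WT replicate 3 was above mdx5cv replicate 1, and WT replicate 2 was far below the other WT muscles. The log2 fold change of 0.48 (SE 0.20, 95% interval 0.050 to 0.91) had an adjusted p of 0.0706. Without WT replicate 2 the log2 fold change was 0.26 (adjusted p = 0.166), without WT replicate 3 it was 0.60 (adjusted p = 0.0455), and with equal totals it was 0.84 (adjusted p = 0.00929).

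*P4ha1* and *P4ha2* encode alternative catalytic subunits of collagen prolyl 4-hydroxylase. *P4ha1* is at chr10:59323296-59373304 and *P4ha2* at chr11:54100095-54131665, both on the plus strand, and neither shares exon bases with another annotated gene. *P4ha1* had 472, 456, 447 and 409 normalized counts in WT and 485, 431, 466 and 476 in mdx5cv muscles. The groups overlapped, and the log2 fold change was 0.059 (SE 0.10, 95% interval -0.15 to 0.27, adjusted p = 0.659), turning to -0.036 with each muscle centred on its median (adjusted p = 0.799) and reaching 0.42 with equal totals (adjusted p = 0.0140). *P4ha2* had 207, 189.8, 245 and 243 normalized counts in WT and 185, 171, 244 and 188 in mdx5cv muscles. Here too the groups overlapped, with mdx5cv replicate 3 within the WT range, and the log2 fold change was -0.17 (SE 0.14, 95% interval -0.47 to 0.13, adjusted p = 0.347), or 0.18 with equal totals (adjusted p = 0.382). Both intervals, which are for the deposited scaling, include 0 and end within 0.5 of it on the log2 scale. With equal totals this did not hold for *P4ha1*, which was then higher on the adjusted p alone.

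**Figure D2:**
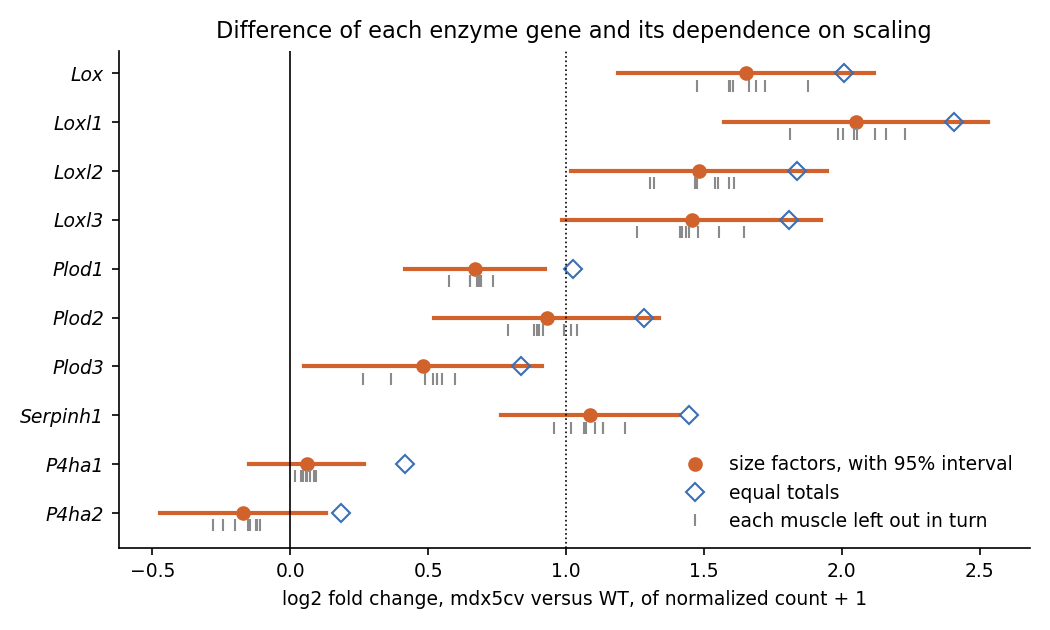
log2 fold change of each gene, mdx5cv against WT, with its 95% interval from limma (circle and line), the value with equal totals (diamond) and the values with each muscle left out in turn (ticks), and a dotted line at 1. The circles, diamonds and ticks of the 4 lysyl oxidase genes lie right of the dotted line, although the interval of *Loxl3* starts at 0.99, while *P4ha2* is at -0.17 with the size factors and at 0.18 with equal totals.

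The order of the levels per kilobase of exon differed in part between the groups. In WT muscle *Serpinh1* had 171 ± 19.8 normalized counts per kilobase (SD, n = 4) and *P4ha1* 108 ± 6.54, and each was above the next gene in every muscle. *Plod1* (36.7 ± 4.96), *P4ha2* (35.5 ± 4.36), *Plod3* (31.6 ± 8.43) and *Loxl1* (23.2 ± 4.03) followed, each with a range that overlapped its neighbour's. At the low end were *Lox* (14.8 ± 1.96), *Loxl2* (11.8 ± 2.78), *Loxl3* (9.92 ± 1.502) and *Plod2* (8.19 ± 1.08), again with overlapping neighbours. In WT muscle the lysyl oxidase genes were thus below both prolyl 4-hydroxylase genes.

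In mdx5cv muscle *Serpinh1* stayed at the top with 369 ± 81.8 normalized counts per kilobase. *P4ha1* (113 ± 5.71) and *Loxl1* (101 ± 39.9) came next and overlapped each other. *Loxl1* had moved from the sixth to the third place of the 10, and *Lox* (48.7 ± 15.97) from the seventh to the fifth, below *Plod1* (58.0 ± 2.53) with overlapping ranges. *Plod3* (43.2 ± 7.67), *Loxl2* (33.6 ± 9.73), *P4ha2* (31.6 ± 5.17) and *Loxl3* (28.5 ± 9.58) followed, each overlapping the next, and *Plod2* remained the lowest with 12.4 to 21.04. *P4ha2* stood in the eighth place, against the fourth in WT, without a called change of its own.

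The mdx5cv muscles differed among themselves in a shared way. Replicate 4 had the highest value of its group for 7 of the 10 genes, and replicate 2 the lowest for 8 of the 10. Over the 10 genes the median deviation from the group mean was 0.41 on the log2 scale in replicate 4 and -0.36 in replicate 2. No WT muscle stood out in this way, as WT replicate 4 was the highest for 4 genes. The share of all genes with this order was not counted, so the order is not shown to be particular to the 10 genes. On the axis of largest variance over all genes tested (73.9% of the variance), mdx5cv replicate 4 was at 79.1. The other mdx5cv muscles were at 39.6 to 53.9 on it. Summed macrophage markers (*Adgre1*, *Cd68*, *Csf1r*, *Mrc1*, *Itgam*, *C1qa*) were also highest in mdx5cv replicate 4, at 3875 normalized counts against 1625 to 2139 in the other mdx5cv muscles. They were lowest in replicate 3 (1625), below replicate 2 (1887). Summed regenerating fiber markers (*Myh3*, *Myh8*, *Mymk*, *Myog*) were highest in replicate 4 too, at 8183, and lowest of the group in replicate 2, at 2102. Summed fibroblast markers (*Pdgfra*, *Dcn*, *Lum*, *Dpt*, *Cd34*, *Ly6a*) were 3751, 4888, 4692 and 4938 in mdx5cv replicates 1 to 4, so replicate 2 was not the lowest.

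The proportions within each family were compared as log2 ratios within a muscle, which do not move with scaling. None of the 30 ratios examined passed an adjusted p of 0.05 in the exact permutation test, two-sided. Its smallest possible p is 0.0286, and the smallest adjusted p over the 30 was 0.0659. A ratio could pass only if many of the 30 reached the smallest possible p together. The absence of calls therefore does not show that the ratios were unchanged. The 10 ratios between family members had overlapping groups in each case. *Loxl1* was 0.40 higher relative to *Lox* in mdx5cv than in WT muscle (SE 0.24, exact permutation p = 0.200). *Loxl2* and *Loxl3* relative to *Loxl1* were -0.57 (SE 0.20) and -0.60 (SE 0.20) in the same comparison, with an exact permutation p of 0.0571 each. The ratio of *P4ha2* to *P4ha1* changed by -0.23 (SE 0.16, exact permutation p = 0.171), and that of *Plod2* to *Plod1* by 0.26 (SE 0.20, exact permutation p = 0.229).

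The enzymes were next set against their substrate. Relative to the mean log2 level of *Col1a1*, *Col1a2* and *Col3a1*, which encode the chains of the main fibrillar collagens of muscle, the mdx5cv range of each of the 10 genes was below its WT range. Those differences ran from -0.79 (SE 0.17) for *Loxl1* to -3.01 (SE 0.28) for *P4ha2*, and each reached the smallest exact permutation p of 0.0286. *Lox* stood at -1.19 (SE 0.18), *Serpinh1* at -1.75 (SE 0.10), *Plod1* at -2.17 (SE 0.27) and *P4ha1* at -2.78 (SE 0.25). The 10 ratios share their denominator, so they are not independent of each other. The collagens themselves rose, as *Col1a1* went from 780.2 ± 161 to 6996 ± 2217 normalized counts (log2 fold change 3.13, SE 0.20, adjusted p = 4.69e-07).

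Fibroblasts make most of this matrix, so the genes were also set against fibroblast transcripts. Of the fibroblast markers *Pdgfra*, *Dcn*, *Lum*, *Dpt*, *Cd34* and *Ly6a*, *Lum* was past the threshold (log2 fold change 1.19), *Pdgfra* (0.63) and *Dpt* (0.46) were higher on the adjusted p alone, and 3 were not called. Their summed level was 2948 to 6578 normalized counts in WT and 3751 to 4938 in mdx5cv muscles, with overlap and no marker at 0. Relative to the mean log2 level of *Pdgfra*, *Dcn*, *Lum* and *Dpt*, *Lox* was 1.14 (SE 0.27), *Loxl1* 1.54 (SE 0.35) and *Loxl3* 0.95 (SE 0.24) higher in mdx5cv muscle, each without overlap and at the smallest exact permutation p of 0.0286. *Loxl2* was 0.97 (SE 0.30) higher with overlap (exact permutation p = 0.0571), and *Serpinh1* 0.58 (SE 0.24) higher (exact permutation p = 0.0857). *P4ha2* was at -0.68 (SE 0.29, exact permutation p = 0.0857), *P4ha1* at -0.45 (SE 0.18, exact permutation p = 0.0571) and *Plod3* at -0.027 (SE 0.38, exact permutation p = 0.971). *Plod1* was at 0.16 (SE 0.29, exact permutation p = 0.714) and *Plod2* at 0.42 (SE 0.24, exact permutation p = 0.171). *Cd34* and *Ly6a*, which were not called (log2 fold changes -0.042 and -0.30), are not in this reference. With all 6 markers in it, a comparison added after the data were seen, *Lox* was 1.37 and *Loxl1* 1.77 higher, *Loxl2* (1.20) joined the genes without overlap, *P4ha1* was at -0.22 (exact permutation p = 0.314) and *Plod3* turned to 0.20 (exact permutation p = 0.8286).

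**Figure D3:**
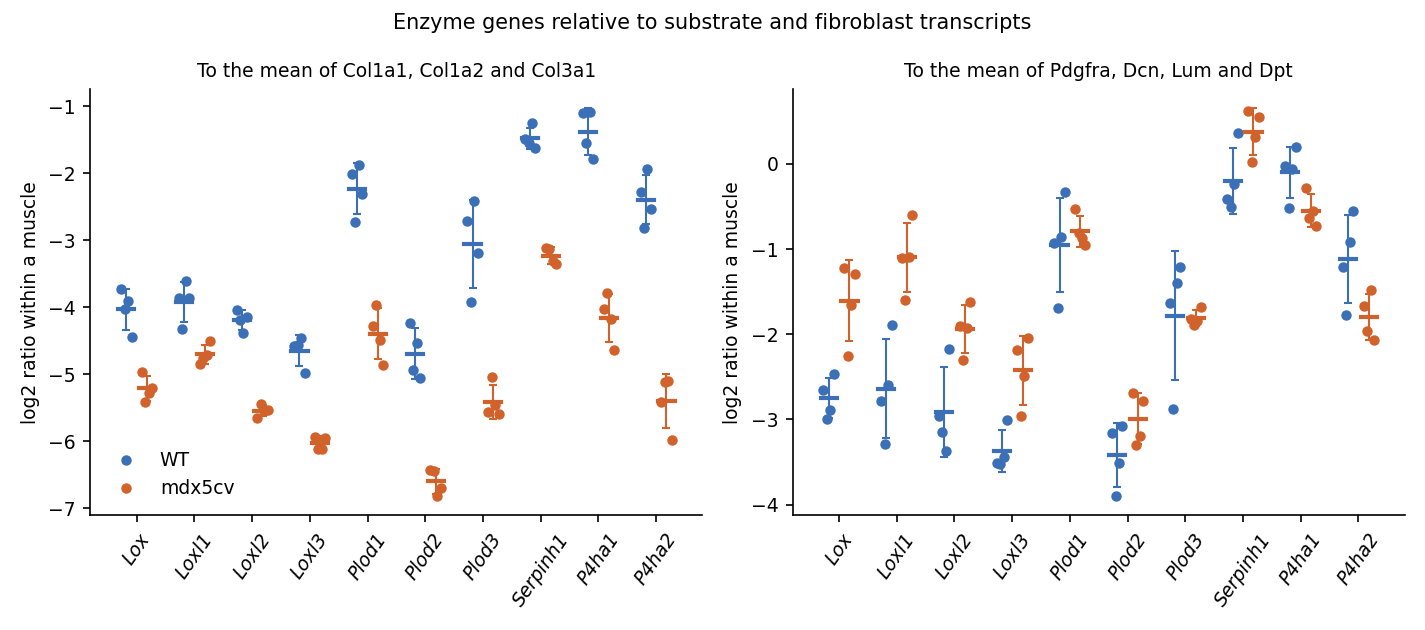
log2 ratio within each muscle of each gene to the mean of *Col1a1*, *Col1a2* and *Col3a1* and to the mean of 4 fibroblast markers, with 4 WT and 4 mdx5cv points per gene, a bar at the mean and an error line of 1 SD. Relative to the collagens all 10 genes are lower in mdx5cv muscles without overlap, while relative to the fibroblast markers *Lox*, *Loxl1* and *Loxl3* are higher without overlap.

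In bulk muscle, more cells of a type and more RNA per cell cannot be told apart. Markers of other cells moved with the group, and their part in the results above was not tested. All 6 macrophage markers were past the threshold, with sums of 327 to 511 in WT and 1625 to 3875 in mdx5cv muscles. The 4 regenerating fiber markers were also past it, with sums of 118 to 143 and 2102 to 8183, and *Mymk* was at 0 in 3 of the 4 WT muscles. Endothelial markers (*Pecam1*, *Cdh5*, *Kdr*, *Tek*) were lower on the adjusted p alone for 4 of 4, with sums of 2394 to 2882 and 1438 to 1878, although with equal totals 2 of the 4 were called. Of the pericyte and smooth muscle markers, *Cspg4* and *Pdgfrb* were higher and *Myh11* and *Rgs5* lower on the adjusted p alone, with sums of 5530 to 6910 and 3880 to 4482. Among the mature fast fiber markers that identify the tissue (*Myh4*, *Myh1*, *Ckm*, *Actn3*, *Acta1*), *Ckm* and *Actn3* were lower on the adjusted p alone, 1 of which was still called with equal totals, and the sums were 871940 to 1065680 in WT and 631998 to 969728 in mdx5cv muscles. No marker of any list was at 0 in every muscle. The tendon markers *Tnmd*, *Scx* and *Mkx* were not called, with sums of 42.4 to 96.2 and 74.1 to 132.

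The other genes of the pathway were taken from 8 lists with 70 genes, of which 66 were tested. Of these, 15 were past the threshold higher (22.7%, against 10.3% of all genes) and 1 lower (1.52%, against 3.27%), and the median log2 fold change was 0.33. A further 14 were higher and 12 lower on the adjusted p alone. That made 29 higher at that adjusted p (43.9%, against 20.9% of all genes) and 13 lower, whose share of 19.7% was at the background of 20.1%. Among the 12 partners that modify or fold the triple helix with the 10 enzymes, 3 were past the threshold and 4 more were higher on the adjusted p alone. *P4ha3*, the remaining catalytic prolyl 4-hydroxylase gene, went from 3.005 ± 1.85 to 21.4 ± 11.3 normalized counts (log2 fold change 2.43, SE 0.50, adjusted p = 0.00177), so it stayed far below *P4ha1* and *P4ha2* in read number. *Fkbp10*, which encodes an ER prolyl isomerase that binds collagen, rose from 35.3 ± 9.06 to 119 ± 34.7 (log2 fold change 1.72), and *Crtap*, of the prolyl 3-hydroxylase complex, from 32.2 ± 6.12 to 86.3 ± 7.37 (1.41). *P4hb*, the shared beta subunit of prolyl 4-hydroxylase, was higher on the adjusted p alone (0.67, SE 0.12, adjusted p = 0.000733). *P3h2*, *P3h4*, *Fkbp14*, *Colgalt1* and *Colgalt2* were not called, although *Colgalt1* was higher on the adjusted p alone with equal totals (0.53, adjusted p = 0.0193).

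Procollagen is trimmed outside the cell, and 4 of the 7 tested proteinases and enhancers were past the threshold higher. *Adamts14*, an N-proteinase, went from 12.6 ± 4.06 to 128 ± 57.7 normalized counts (log2 fold change 3.21, SE 0.32, adjusted p = 8.34e-06). *Adamts2*, *Pcolce* and *Bmp1*, the C-proteinase that also activates lysyl oxidase, rose by 1.27, 1.09 and 1.03. *Pcolce2* was the one gene of the 66 past the threshold lower, from 62.7 ± 13.8 to 30.5 ± 3.42, with a log2 fold change of -1.002 (SE 0.19, adjusted p = 0.00120) that fell short of the minimum with TMM factors or equal totals. *Adamts3* (0.82) was higher on the adjusted p alone, *Tll1* was not called and *Tll2* was below the filter.

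Among other crosslinking enzymes and partners, *Postn*, whose product periostin brings BMP1 and lysyl oxidase to the matrix, was the gene past the threshold, from 88.0 ± 31.9 to 1601 ± 876 normalized counts (log2 fold change 4.07, SE 0.33, adjusted p = 2.61e-06). *Pxdn*, *Efemp2* and *F13a1* were higher (0.81, 0.77 and 0.57) and *Fbln5* lower (-0.60) on the adjusted p alone. *Loxl4*, the fifth gene of the lysyl oxidase family, was not called, at 16.3 ± 6.02 in WT and 23.0 ± 2.96 in mdx5cv muscles (0.54, SE 0.30, adjusted p = 0.171). *Tgm2* and *Fmod* were not called either, and *Tgm1* was below the filter. With equal totals *Loxl4* (0.88, adjusted p = 0.0320) and *Tgm2* (0.38, adjusted p = 0.0266) were higher on the adjusted p alone. Of the fibrillar collagens and elastin, 6 of 9 tested were past the threshold, led by *Col1a1*, *Col3a1* (3.09), *Col5a2* (2.33) and *Col1a2* (2.29). *Eln*, *Col11a1* and *Col11a2* were not called, although *Col11a1* was past the threshold with equal totals (1.07, adjusted p = 0.00679).

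Of the 6 genes that carry procollagen out of the ER, 0 were past the threshold. *Sec24d*, a coat protein of transport vesicles, was higher (0.83, SE 0.21, adjusted p = 0.00723), whereas *Sar1b* (-0.77), *Mia3* (-0.52), *Sec23a* (-0.50), *Sec13* (-0.48) and *Mia2* (-0.46) were lower on the adjusted p alone. With equal totals 1 of these 5 was called lower, and *Sec24d* was past the threshold higher. Of the 7 general ER chaperones, *Pdia3* was past the threshold (1.29) and *Pdia4*, *Pdia6* and *Hsp90b1* were higher on the adjusted p alone (0.92, 0.75 and 0.56). *Hspa5*, *Calr* and *Canx* were not called, but with equal totals they were higher on the adjusted p alone (0.62, 0.51 and 0.64). The oxygen-responsive genes and HIF hydroxylases, listed because some prolyl and lysyl hydroxylase genes are known HIF targets, had 0 of 11 past the threshold. *Ankrd37* (0.96) and *Egln3* (0.72) were higher on the adjusted p alone, and *Pdk1* (-0.86), *Egln1* (-0.62), *Bnip3* (-0.58), *Egln2* (-0.55), *Vegfa* (-0.52) and *Ndrg1* (-0.44) lower. With equal totals 1 of the lower genes, *Pdk1*, was still called lower, and 3 genes of the list were called higher. Of these 3, *Ankrd37* and *Egln3* were then past the threshold, and *Hif1an* was higher on the adjusted p alone (0.51, adjusted p = 0.0219). The 6 cytosolic heat shock genes, *Hspa1a*, *Hspa1b*, *Hsp90aa1*, *Dnajb1*, *Hspb1* and *Hsph1*, were not called, with a median log2 fold change of 0.17. With equal totals that median was 0.52 and *Hsp90aa1* was called (0.62, adjusted p = 0.0167).

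**Figure D4:**
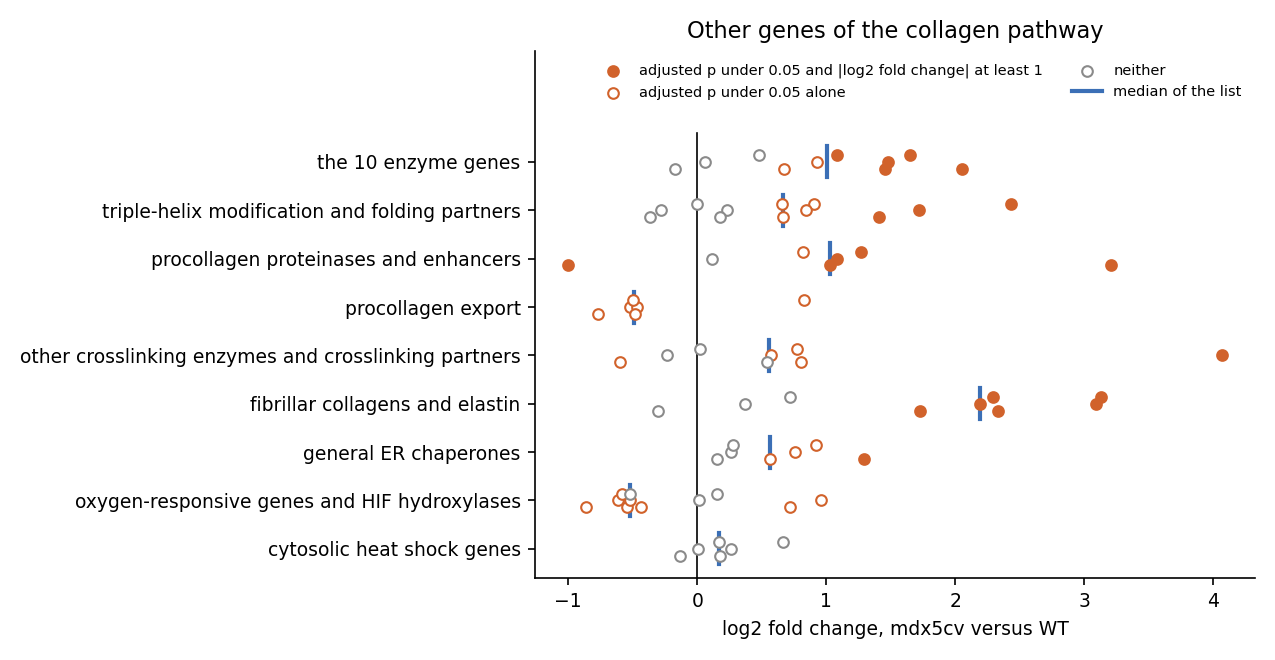
log2 fold change, mdx5cv against WT, of every tested gene of the 8 pathway lists and of the 10 enzymes, with 1 point per gene, coloured by its call, and a line at each list's median. The fibrillar collagens reach 3.13 and *Postn* 4.07, while most export and oxygen-responsive genes lie left of 0.

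The genes of the whole table whose pattern over the 8 muscles was most like each enzyme were found by the root-mean-square difference of log2 values after subtracting each gene's WT mean. *Mrc2*, a collagen receptor of fibroblasts, was nearest to *Loxl3* with a difference of 0.0946, followed by *Mfap5* (0.126) and *Tuba1a* (0.130). *Lox* had *Gpr137b-ps* (0.163), *Tuba1a* (0.178) and *Loxl3* itself (0.185) as its nearest genes. The nearest to *Loxl1* were *Cacna1d* (0.106), the proteoglycan gene *Bgn* (0.155) and *Map1b* (0.156), and the nearest to *Loxl2* was *Fbn1* (0.133), which encodes fibrillin, then *Gxylt2* (0.147) and *Ccdc8* (0.149). *Serpinh1* was most like *Fat1* (0.0814), *Gpx1* (0.0849) and *Ammecr1* (0.0927). *Plod1* was most like *Cep250* (0.0656), *Septin11* (0.0658) and *Rogdi* (0.0669), *Plod2* like *Tor4a*, then *Mdfic* (0.113) and *Manf* (0.113), and *Plod3* like *Ncs1* (0.109), *Bcap31* (0.111) and *Dhdds* (0.114). For *P4ha1* they were *Setd2* (0.0442), *Uhmk1* (0.0478) and *Ptges3* (0.0495), and for *P4ha2* *Isy1* (0.0607), *Efna1* (0.0638) and *Llph* (0.0770). Only the WT mean was subtracted, so the measure includes the difference between the groups. The nearest genes therefore have a log2 fold change like that of the enzyme by construction. Those of *P4ha1* and *P4ha2* were not called, like these 2 genes themselves.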

How the data were processed

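TA muscles of 4 WT and 4 mdx5cv mice were compared, and groups were assigned from the genotype in the labels. What the authors deposited is a signal for every gene, the reads counted for it over the size factor of that muscle, and no gene was filtered out. The submitters' processing notes name FastQC, Trim Galore 0.6.4, STAR 2.6.0c, SAMtools 1.9, featureCounts, MultiQC 1.6, DESeq2 1.26.0, R 3.6.2 and mm10, with no role or order. The labels give stranded total RNA libraries depleted of ribosomal RNA, but not the strand setting of the counting, so genes that overlap on the opposite strand are uncertain. Whole reads were recovered from 100.0% of values (tolerance 1e-06), and the size factors equalled median-of-ratios factors. GENCODE M21 holds 55141 of the IDs, version ignored. Chi-square per degree of freedom between replicates was 9.55 to 43.2, so no library was a copy of another.

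Genes were tested with limma 3.58.1 in R 4.3.3 (lmFit, then eBayes with trend, two-sided) on log2(normalized count + 1), with Benjamini-Hochberg adjustment over 13677 genes whose mean normalized count reached 10. This scale understates the change of low genes. The deposited values are not the reads themselves, so edgeR 4.0.16 and DESeq2 1.42.0 on the recovered reads were alternatives, beside other pseudocounts (0.1 and 10), filters, scalings (TMM, centring on the median, equal totals), an untrended variance, a minimum absolute log2 fold change of 2, a replicate block and each replicate left out. Log2 ratios were tested by exact permutation over 70 arrangements, with adjustment over 30 ratios. Levels per kilobase use the GENCODE exon length. Other steps ran in Python 3.11.15 (scipy 1.17.1, pandas 2.3.3, numpy 2.4.6, matplotlib 3.10.9), and the scripts were tested on simulated data.

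The genes, lists and markers were chosen with earlier results of these data known. The text names all 10 genes, *Dmd*, the 4 largest changes past the threshold of each pathway list with exceptions, the markers, and the 3 genes most like each enzyme. Some other genes of the lists are named as well, but not every member.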

Additional observations from a re-analysis of the deposited data

Results flagged for a closer look

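In 4 of the 82 sets of 4 values examined, 1 muscle stood apart from the other three by more of the group's range than Dixon's 95% critical value for 4 samples. Chance gives about 4.1 such sets. The *Loxl3* level of WT replicate 2 was 55.9 normalized counts, while the other WT muscles had 41.3 to 43.4. The log2 ratio of *Loxl3* to *Lox* was -0.86 in WT replicate 1, the lowest of its group. The log2 ratio of *P4ha2* to *P4ha1* was -0.93 in mdx5cv replicate 3, the highest of its group. The log2 ratio of *Loxl3* to the fibroblast marker mean was -3.005 in WT replicate 4, the highest of its group.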

How the results depend on the processing

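*Lox*, *Loxl1*, *Loxl2*, *Loxl3*, *Plod1*, *Plod2* and *Serpinh1* were higher in mdx5cv muscle at an adjusted p under 0.05 in the 19 alternatives run for each gene. The count of the 10 genes past the threshold was 5 with edgeR and DESeq2, 7 with equal totals (with *Plod1* at 1.03 and *Plod2* at 1.28), 4 with centring on the median and 1 (*Loxl1*) at a minimum absolute log2 fold change of 2, and 4 to 6 with each replicate left out. *P4ha1* turned to -0.036 with centring on the median and *P4ha2* to 0.18 with equal totals, neither called. *Plod3*, not called in the main comparison, was called at 0.84 with equal totals, at 0.60 without WT replicate 3 and in the fit with the replicate block, and *P4ha1* at 0.42 with equal totals. The causes were not tested.

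Pathway genes past the threshold higher were 28 with equal totals and 8 at a minimum of 2, against 15, and 13 to 19 with each replicate left out. The 1 lower pathway gene, *Pcolce2*, was lost (0 genes) with TMM factors, equal totals, a pseudocount of 10 and a minimum of 2, and the count was 0 to 1 with each replicate left out, at 0 without WT replicate 2, mdx5cv replicate 1 or mdx5cv replicate 3. Over all genes, equal totals gave 2256 higher and 210 lower against 1414 and 447.

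With the replicate number as a block, 5 of the 10 genes were past the threshold and 8 were higher on the adjusted p alone (*Plod3* joined, adjusted p = 0.0395). Deviations of same-numbered samples correlated at 0.0501, 0.0309, 0.0722 and 0.146, so the numbers were not taken to pair the samples. For the ratios, an exact permutation test of 3 against 4 muscles cannot go below p = 0.0571 and 4 pairs not below 0.125, so those alternatives gave values only. With a replicate left out, 27 of the 30 ratios kept their sign and 3 did not, none of them called (*Loxl3* to *Loxl2*, -0.15 to 0.10, and to the fibroblast markers *Plod1*, -0.084 to 0.37, and *Plod3*, -0.39 to 0.16). With all 6 fibroblast markers in the reference, added after the data were seen, 0 of 30 ratios were called and *Plod3* turned to 0.20. Of the 10 genes, *Loxl3* and *Plod2* rest on the fewest reads, down to 36 in 1 muscle.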
